A study of Mus musculus with 8 samples.

Results

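Transcript levels of 9 genes of cholesterol uptake, cholesterol efflux and sterol sensing were compared in epididymal white adipose tissue (eWAT, the visceral fat pad beside the epididymis) between Abhd15 KO and WT mice. The genes were Lrp1, Scarb1, Abca1, Abcg1, Apoe, Apoc1, Pltp, Mylip and Insig1, chosen by name as receptors, transporters, apolipoproteins and regulators that respond to cellular cholesterol. Each of the 9 was represented by 1 probe set annotated to that gene alone, out of 22180 genes on the array, and all 9 were among the 11090 genes bright enough to be tested. The KO group was 5 male Abhd15 KO mice and the WT group 3 male wild-type mice, with 1 array per mouse. All mice of both groups were on the C57BL/6J background, received normal chow, were 14 weeks old, and had been fasted overnight and then refed with chow for 1 h before the fat was taken. The sources used here do not describe how the Abhd15 allele was made or in which cells it is lost.

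Adipose tissue holds a large pool of free cholesterol, much of it at the surface of the lipid droplet and in the plasma membrane of adipocytes. Cells take cholesterol up from lipoproteins through receptors such as LRP1 and SR-BI, and pass it out through ABC transporters to apolipoproteins and high-density lipoprotein (HDL). When sterols accumulate, the liver X receptors (LXR), nuclear receptors that bind oxysterols as partners of RXR, raise transcription of Abca1, Abcg1, Apoe, Apoc1, Pltp and Mylip. When sterols are scarce, the membrane-bound SREBP factors are released and raise genes of cholesterol synthesis and uptake, a step that the protein INSIG1 restrains by holding SREBP and its escort SCAP in the endoplasmic reticulum. Macrophages in fat also express Abca1, Abcg1, Apoe and Apoc1, and in a whole-tissue sample fewer cells of a type and less RNA per cell cannot be told apart.

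Promoter windows of 300 bases (250 before the transcription start to 50 after it) were available from RefSeq, assembly GRCm38.p6, for 6 of the 9 genes: Abca1, Apoe, Lrp1, Pltp, Mylip and Insig1. The windows of 3 are shown 5′ to 3′ because they stand for the sterol-excess arm (Abca1), the gene of smallest p among the 9 (Lrp1) and the sterol-scarcity arm (Insig1). They lie at chr4:53159846-53160145 on the minus strand (Abca1), chr10:127621099-127621398 on the minus strand (Lrp1) and chr5:28071162-28071461 on the plus strand (Insig1). Capitals mark the DR4 and E-box matches in Abca1, the GC box in Lrp1 and the E-box in Insig1, all described next.
Abca1: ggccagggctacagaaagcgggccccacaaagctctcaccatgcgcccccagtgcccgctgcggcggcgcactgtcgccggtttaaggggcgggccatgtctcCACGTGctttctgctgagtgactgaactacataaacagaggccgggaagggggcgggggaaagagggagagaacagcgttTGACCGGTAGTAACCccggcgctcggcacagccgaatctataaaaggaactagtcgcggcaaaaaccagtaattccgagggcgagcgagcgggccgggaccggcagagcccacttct
Lrp1: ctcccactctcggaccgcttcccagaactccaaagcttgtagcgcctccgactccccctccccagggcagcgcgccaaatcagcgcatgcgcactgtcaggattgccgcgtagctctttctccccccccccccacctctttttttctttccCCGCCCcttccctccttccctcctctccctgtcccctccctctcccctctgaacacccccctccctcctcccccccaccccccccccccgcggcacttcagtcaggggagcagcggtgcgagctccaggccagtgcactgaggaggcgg
Insig1: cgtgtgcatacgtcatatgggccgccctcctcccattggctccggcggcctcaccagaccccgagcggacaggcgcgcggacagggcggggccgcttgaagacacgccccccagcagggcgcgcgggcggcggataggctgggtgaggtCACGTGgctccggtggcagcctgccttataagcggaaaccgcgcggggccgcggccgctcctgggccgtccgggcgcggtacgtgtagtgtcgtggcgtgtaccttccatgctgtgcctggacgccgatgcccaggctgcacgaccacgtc
LXR with RXR binds direct repeats of a hexamer spaced by 4 bases (DR4). On both strands, the consensus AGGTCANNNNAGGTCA occurred in 0.0152% of the 32851 windows of 27025 genes and in no window of the 9 genes. A relaxed form, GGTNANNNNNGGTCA, whose letters were chosen after the Abca1 window had been read, occurred in 0.207% of all windows. Among the windows of the 9 genes it matched in Abca1 alone, on the reverse strand, 67 to 53 bases before the start (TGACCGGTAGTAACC as printed). The E-box CACGTG, which reads the same on both strands and does not overlap that match, was present in 7.15% of all windows. It lay 147 to 142 bases before the start of Abca1 and 101 to 96 bases before the start of Insig1. The GC box GGGCGG, held by 35.7% of all windows on either strand, matched once each in Lrp1 (reverse strand), Pltp and Mylip, 2 times in Abca1 and 3 times in Insig1, where its matches are left in lower case as in Abca1. TCACNCCAC, a form of the sterol regulatory element bound by SREBP, occurred in 1.24% of all windows and was not among the letters of any window of the 9 genes.

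Values are the deposited log2 RMA signals (RMA, robust multi-array average, corrects background, normalizes across arrays and summarises probes), so a difference of 1 is a doubling of signal, and levels of different genes are not set against each other. The array medians over all probe sets lay between 2.93 and 3.12. Adipocyte markers were bright in every array, among them Adipoq, which encodes adiponectin (8.57 to 9.85 in KO and 9.68 to 9.90 in WT), and the lipid droplet coat genes Plin1 (9.01 to 10.58 in KO and 9.88 to 10.22 in WT) and Plin4 (10.94 to 11.19 in KO and 11.58 to 11.62 in WT). Abhd15 itself read 5.60 to 6.27 in KO and 6.14 to 6.45 in WT at its brighter probe set, and the array KO 3 lay inside the WT range. Since the sources used here do not place its probes relative to the deletion, this reading is no check of the genotype labels. Markers of the male reproductive tract were high in some arrays. Over 9 testis and germ cell markers the mean was 4.32 in KO 4 and 3.16 to 3.48 in the other KO arrays, whereas WT 1 had 5.70, WT 2 had 4.85 and WT 3 had 3.00. Of these markers, 5 were not bright enough to be tested. Odf1, named after its values were seen, was bright in every array (10.57 to 10.94 in KO and 10.45 to 10.77 in WT). The mean of 11 epididymis and seminal vesicle markers, none of them bright enough to be tested, reached 4.34 in KO 4 and 3.16 in WT 1, while the other arrays had 1.97 to 2.25. Different genes were high in these arrays. WT 1 was high in Svs2 (6.38), Svs4 (6.45) and Svs5 (7.42). KO 4 was high in Adam7 (10.24), Lcn5 (8.56), Spint4 (10.25) and Defb1 (5.17), named after their values were seen. Single genes were also raised elsewhere, Svs5 in WT 2 (4.51) and Adam7 in KO 3 (4.93). The mean of 14 immediate early genes was 6.45 in KO 1 and 6.54 in KO 2, and 5.13 to 5.80 in the other KO arrays, with 4.99 to 5.61 in WT.

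Across the 9 genes, 6 were lower and 3 were higher in KO by their fitted mean (55.2% of all tested genes were lower), and the values of 3 genes, Lrp1, Abcg1 and Apoc1, differed most. None of the 9 passed the threshold of 0.05 in limma after the Benjamini-Hochberg adjustment over all 11090 genes (adjusted p between 0.313 and 0.982), and neither did any other gene, 0 of 11090 (0.0%). At an unadjusted p under 0.05 in limma, 3 of the 9 were lower in KO and 0 were higher, where 716 of all tested genes (6.46%) were lower and 448 (4.04%) were higher. For 2 of the 9, Abcg1 and Lrp1, every KO array lay below every WT array, which held for 614 of all tested genes (5.54%). The opposite order, with all KO arrays above all WT arrays, occurred in 0 of the 9 and in 2.99% of all tested genes. The median log2 fold change (KO over WT) was -0.17 over the 9 genes and -0.03 over all tested genes, and without WT 1 these medians were -0.11 and -0.02. The 9 genes were chosen with earlier results of these data known, so these counts describe them and are no independent evidence.

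**Figure D1:**
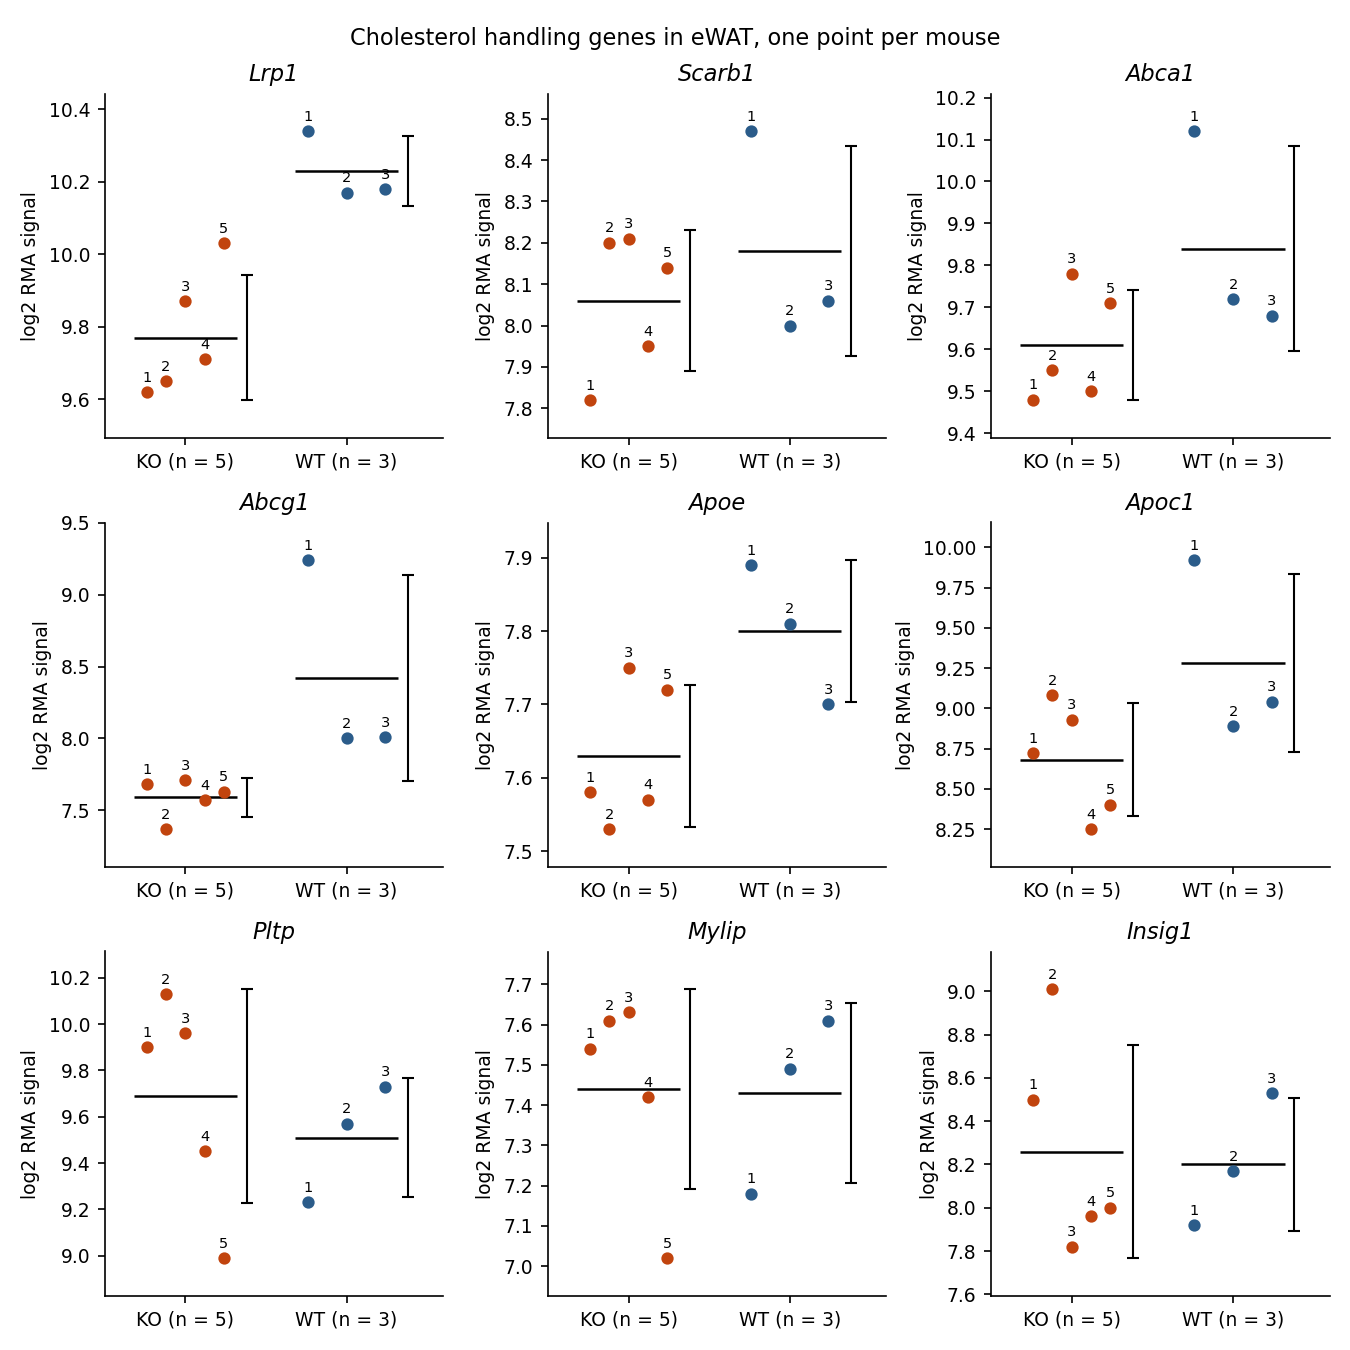
Log2 RMA signal (vertical axes, each with its own range) of the 9 genes in every mouse, KO left and WT right, with replicate numbers beside the points, horizontal lines at the group means and bars of 1 SD. Every KO point lies below every WT point in the panels of Lrp1 and Abcg1, and WT 1 is the highest point in 6 of the 9 panels.

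Lrp1, a large endocytic receptor that clears apolipoprotein E-rich remnant particles and many other ligands, had the smallest unadjusted p of the 9. It read 9.62, 9.65, 9.87, 9.71 and 10.03 in KO 1 to KO 5, against 10.34, 10.17 and 10.18 in WT 1 to WT 3. The groups did not overlap, with 0.14 between the highest KO array (KO 5) and the lowest WT array (WT 2). The means were 9.77 ± 0.172 in KO (SD, n = 5) and 10.23 ± 0.0962 in WT (SD, n = 3), so that the log2 fold change was -0.45 (SE 0.134, 95% confidence interval -0.75 to -0.16), or 0.73 of the WT level. The difference was larger than the spread within either group but did not pass in limma (unadjusted p = 0.00684, adjusted p = 0.313), while an exact permutation test (two-sided) gave p = 0.0357, the smallest that 5 arrays against 3 can give. Without WT 1 the log2 fold change was -0.40 (unadjusted p = 0.0306, adjusted p = 0.722 in limma).

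Scarb1 encodes SR-BI, the HDL receptor that takes up cholesteryl esters without internalising the particle. Its values were 7.82, 8.20, 8.21, 7.95 and 8.14 in KO, against 8.47, 8.0 and 8.06 in WT. The groups overlapped widely: WT 2 and WT 3 lay inside the KO range and only WT 1 lay above it. The log2 fold change was -0.11 (SE 0.154, 95% confidence interval -0.46 to 0.23, adjusted p = 0.831 in limma), and without WT 1 it was 0.03.

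Of the efflux transporters, Abca1 loads phospholipid and cholesterol onto lipid-poor apolipoprotein A-I. It read 9.48, 9.55, 9.78, 9.50 and 9.71 in KO, against 10.12, 9.72 and 9.68 in WT. KO 1, KO 2 and KO 4 lay below all WT arrays, whereas KO 3 lay above WT 2 and WT 3, and KO 5 above WT 3. The log2 fold change was -0.23 (SE 0.144, 95% confidence interval -0.55 to 0.09, adjusted p = 0.594 in limma, exact permutation p = 0.179). Without WT 1 it was -0.09.

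Abcg1, which moves cholesterol onward to mature HDL, had the most negative fold change of the 9 genes. It read 7.68, 7.37, 7.71, 7.57 and 7.63 in KO, against 9.24, 8.0 and 8.01 in WT. All 5 KO arrays lay within 0.35 of each other and below every WT array, the nearest being WT 2, 0.28 above KO 3. Among WT, the array WT 1 lay 1.25 above WT 2. The means were 7.59 ± 0.138 in KO (SD, n = 5) and 8.42 ± 0.718 in WT (SD, n = 3), so that the log2 fold change was -0.82 (SE 0.264, 95% confidence interval -1.41 to -0.24), or 0.565 of the WT level. It did not pass in limma (unadjusted p = 0.0109, adjusted p = 0.335), and the exact permutation p was 0.0357, again the smallest possible. Its size depended on WT 1: without that array the log2 fold change was -0.41 (SE 0.144, 95% confidence interval -0.74 to -0.08, adjusted p = 0.69), and the KO arrays still lay below both remaining WT arrays. WT 1 is also the array with the highest testis marker mean, 5.70.

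**Figure D2:**
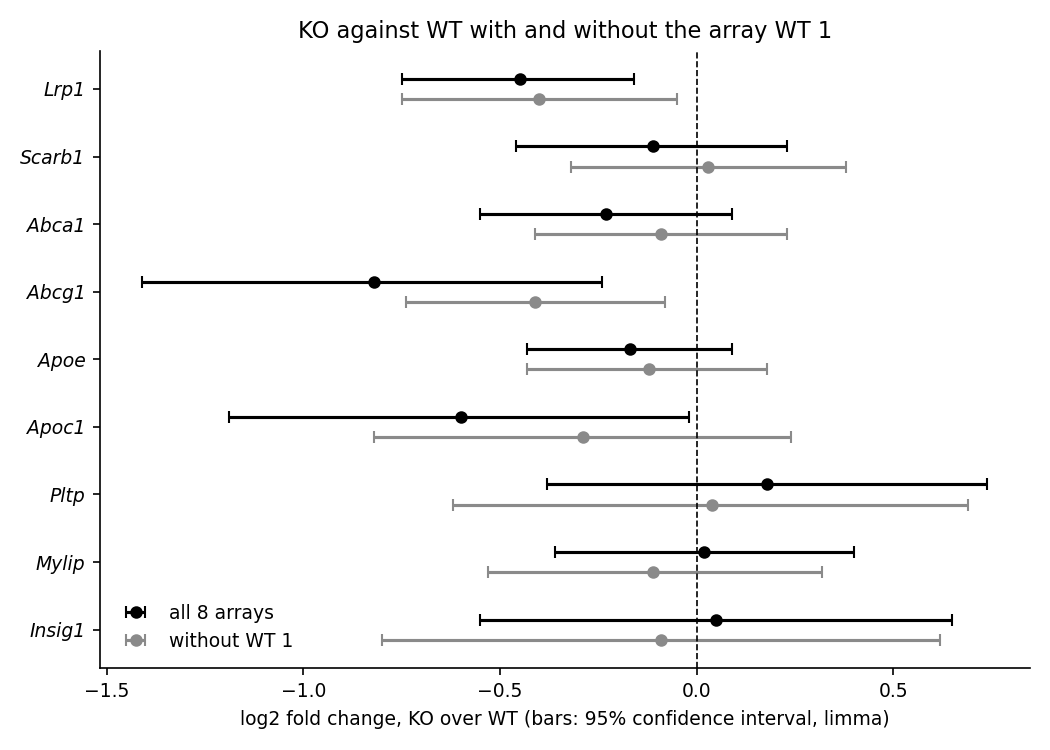
Log2 fold change, KO over WT (horizontal axis), of the 9 genes with 95% confidence intervals from limma, from all 8 arrays (black) and without WT 1 (grey). The interval of Abcg1 narrows and its value becomes -0.41 without WT 1, in place of -0.82, and that of Lrp1 becomes -0.40, in place of -0.45.

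Among the apolipoproteins, Apoe, the ligand through which remnant particles bind LRP1 and the LDL receptor family, varied little. It read 7.58, 7.53, 7.75, 7.57 and 7.72 in KO, against 7.89, 7.81 and 7.70 in WT. KO 1, KO 2 and KO 4 lay below all WT arrays, and KO 3 and KO 5 lay above WT 3. The log2 fold change was -0.17 (SE 0.117, 95% confidence interval -0.43 to 0.09, adjusted p = 0.639 in limma).

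Apoc1, a small apolipoprotein that slows lipoprotein uptake by receptors, lies in the same gene cluster on chromosome 7 as Apoe. It read 8.72, 9.08, 8.93, 8.25 and 8.40 in KO, against 9.92, 8.89 and 9.04 in WT. The groups overlapped, since KO 2 and KO 3 lay above WT 2, and WT 1 was 0.88 above the next array of its group. The means were 8.68 ± 0.35 in KO (SD, n = 5) and 9.28 ± 0.554 in WT (SD, n = 3), so that the log2 fold change was -0.60 (SE 0.264, 95% confidence interval -1.19 to -0.02), with an unadjusted p of 0.0447 and an adjusted p of 0.46 in limma. The exact permutation p was 0.179. Without WT 1 the log2 fold change was -0.29 (SE 0.234) and its unadjusted p was 0.251, and with the replicate number as a block it was -0.37 (unadjusted p = 0.23).

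Pltp, the plasma phospholipid transfer protein that remodels HDL, went the other way in mean. It read 9.90, 10.13, 9.96, 9.45 and 8.99 in KO, against 9.23, 9.57 and 9.73 in WT. KO 1, KO 2 and KO 3 lay above every WT array, but KO 5 was the lowest of all 8 arrays, so the KO range enclosed the WT range. KO 5 read low in many genes, being the lowest array for 28.9% of all tested genes. Its median over the tested genes was 5.93, against 6.04 to 6.07 in the other arrays. The log2 fold change of Pltp was 0.18 (SE 0.251, 95% confidence interval -0.38 to 0.74, adjusted p = 0.839 in limma). With single arrays left out it ranged from 0.04 (without WT 1) to 0.35 (without KO 5). In the fit with a replicate block, which compares only KO 1 to KO 3 with WT 1 to WT 3, it was 0.49 (unadjusted p = 0.0146, adjusted p = 0.194), and without KO 1 and KO 2 it was -0.04. KO 1 and KO 2 also had the highest immediate early gene means (6.45 and 6.54), while KO 3 had 5.80 and WT 1 had 5.61. A link of these means to the Pltp values was not tested.

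Mylip encodes the ubiquitin ligase IDOL, through which LXR removes the LDL receptor and its relatives from the cell surface. Its values were 7.54, 7.61, 7.63, 7.42 and 7.02 in KO, against 7.18, 7.49 and 7.61 in WT. The groups overlapped almost completely, and the lowest arrays were KO 5 and WT 1. The log2 fold change was 0.02 (SE 0.171, 95% confidence interval -0.36 to 0.40, adjusted p = 0.982 in limma).

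Insig1, the sterol-sensing anchor of SCAP and itself a gene that SREBP activates, spread most widely within KO of the 9 genes. It read 8.50, 9.01, 7.82, 7.96 and 8.0 in KO, against 7.92, 8.17 and 8.53 in WT. The KO arrays covered a range of 1.19, with KO 2 above every WT array and KO 3 below every WT array. The log2 fold change was 0.05 (SE 0.269, 95% confidence interval -0.55 to 0.65, adjusted p = 0.96 in limma). That interval includes a lowering as large as the fitted -0.45 of Lrp1, so these arrays do not exclude a difference of that size.

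Single mice differed across the 9 genes. WT 1 was the highest of the 8 arrays for 6 of them, Lrp1, Scarb1, Abca1, Abcg1, Apoe and Apoc1, whereas it was the highest for 18.1% of all tested genes. For Pltp, Mylip and Insig1 the same array was the lowest of the WT group. The macrophage markers went both ways in this array: WT 1 was the highest WT array for 4 of the 17 measured and the lowest for 10, and for 1 of them, Cd14 (6.84, named after its values were seen), it was the highest of all 8 arrays. The mean of the 17 markers, all of them tested, was 6.85 to 7.32 in KO and 7.07 to 7.21 in WT, with WT 1 the lowest of the WT arrays at 7.07. Among their defining genes Adgre1, a surface marker of tissue macrophages, read 5.62 to 6.31 in KO, against 5.75 in WT 1, 6.01 in WT 2 and 5.93 in WT 3. The lysosomal marker Cd68 read 7.34 to 8.23 in KO, against 8.16, 7.71 and 7.90 in the same WT arrays, and Csf1r, the receptor for the macrophage growth factor CSF1, read 7.63 to 8.43 in KO, against 7.36, 8.16 and 7.77. The part of macrophage transcripts in the values of Abca1, Abcg1, Apoe and Apoc1 was not tested. The mean of 11 mature adipocyte markers was 10.29 to 10.72 in KO and 10.51 to 10.69 in WT. The mean of 12 endothelial markers was 7.32 to 7.50 in KO and 7.45 to 7.81 in WT, lower in 4 of 5 KO arrays than in any WT array, and its part in the values of Lrp1 and Abcg1 was not tested. Fibroblast and preadipocyte markers (mean of 8) were at 7.95 to 8.34 in KO and 8.07 to 8.32 in WT, and mesothelial markers (mean of 8) at 5.46 to 5.92 in KO and 5.71 to 5.95 in WT. The part of testis and seminal vesicle transcripts in the high values of WT 1 was not tested, beyond the values without that array given above.

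**Figure D3:**
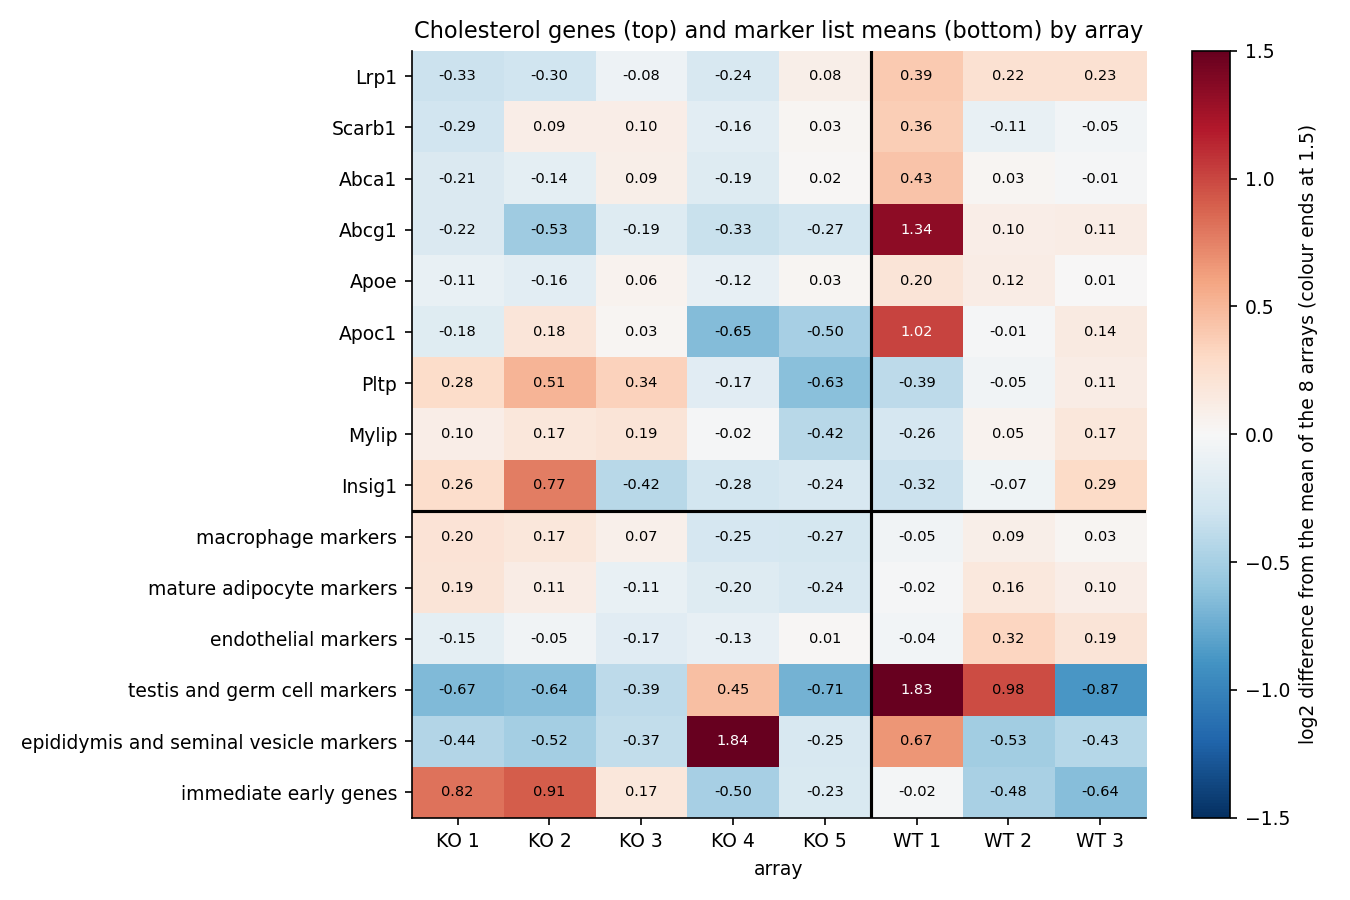
Log2 difference of each array (columns, KO left of WT) from the mean of the 8 arrays, for the 9 genes (upper rows) and for the means of 6 marker lists (lower rows), with colour ends at 1.5. WT 1 stands out in Abcg1 (1.34) and Apoc1 (1.02) and in the testis markers (1.83), while its macrophage marker mean lies near the average (-0.05).

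By likeness over the 8 arrays, the tested genes closest to Abca1 were the membrane aminopeptidase gene Lvrn (Pearson r = 0.982), Atrn (0.961) and Rab3gap1 (0.959). Those closest to Insig1 were the adhesion glycoprotein gene Vtn (0.95), the sphingolipid synthesis gene Sptlc1 (0.931) and Igfbp5, which encodes an IGF-binding protein (0.927). These are the highest correlations among all tested genes, they include the difference between the groups, and they describe only these 8 arrays.

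Other genes of cholesterol handling were taken from 6 further lists, and none of their members passed in limma after adjustment over all genes. Each count covers only the tested genes of a list, since some listed genes were not measured or not bright enough. Over all tested genes, 55.2% had a fold change below 0, 6.46% were lower at an unadjusted p under 0.05 and 4.04% were higher at that level. Of the 14 listed LXR and RXR receptors and cofactors, 11 were measured and tested. KO was higher in 4 of these 11 and lower in 7, with a median log2 fold change of -0.13 and 0 at an unadjusted p under 0.05. The smallest p was that of the corepressor-associated deacetylase Hdac3 (log2 fold change 0.25, SE 0.151, adjusted p = 0.588). Nr1h3, which encodes LXRα and was chosen after its values were seen, averaged 7.09 ± 0.173 in KO (SD, n = 5) and 7.25 ± 0.228 in WT (SD, n = 3), with overlapping groups (log2 fold change -0.16, adjusted p = 0.748 in limma).

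Of the other LXR target genes, 6 of 12 were higher and 6 lower in KO (median 0.01), and 2 lower ones had an unadjusted p under 0.05 (6.46% of all tested genes). Apoc2, the activator of lipoprotein lipase and a further gene of the Apoe cluster, read 3.47, 3.47, 3.64, 3.37 and 3.69 in KO, against 5.06, 3.96 and 4.00 in WT. Its KO mean, 3.53, lies below the level of 3.61 under which genes were not tested, so it was tested only through its WT values. Its place among the 2 lower genes is thus no support for a difference, and no fold change is given here. Lpcat3, which puts polyunsaturated chains into membrane phospholipids, lay at -0.36 on the log2 scale (SE 0.127, adjusted p = 0.37), also without overlap.

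In the list of the SREBP pathway and sterol feedback, 11 of the 18 listed genes were measured and tested. KO was higher in 2 of these 11 and lower in 9 (55.2% of all tested genes were lower). The median was -0.21, and 2 of the lower genes had an unadjusted p under 0.05. Hmgcs1, the synthase that feeds the mevalonate pathway, was lower in every KO array (7.64 to 8.76) than in any WT array (9.06 to 9.58), which put its log2 fold change at -1.01 (SE 0.241, adjusted p = 0.226 in limma). Stard4, a cytosolic sterol carrier, followed at -0.34 (SE 0.14, adjusted p = 0.438) with overlap. Of the SREBP genes themselves, Srebf2 (-0.03, adjusted p = 0.96 in limma) belongs to this list, as does the escort Scap (0.24, adjusted p = 0.579). Srebf1 (0.09, adjusted p = 0.926) was counted above, among the other LXR target genes. These genes were named after their values were seen.

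Lipoprotein and scavenger receptors other than Lrp1 and Scarb1 were higher in KO in 11 of 16 and lower in 5 (median 0.13), and 3 had an unadjusted p under 0.05, all higher (4.04% of all tested genes). Sorl1, a sorting receptor of the LDL receptor family, was at 0.62 on the log2 scale (SE 0.195, limma adjusted p = 0.331), Lrp11 at 0.73 (SE 0.263, adjusted p = 0.372) and Sort1, which encodes sortilin, at 0.37 (SE 0.15, adjusted p = 0.433). In each of them the groups overlapped. Without WT 1 the values were 0.57, 0.57 and 0.26.

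Of the genes of intracellular cholesterol movement and esterification, 9 of 15 were higher and 6 lower in KO (median 0.09). Npc1, which carries cholesterol out of lysosomes, lay at -0.47 on the log2 scale (SE 0.169, adjusted p = 0.373 in limma), and -0.28 without WT 1. Of the other apolipoproteins and HDL remodelling genes, 8 of 12 were higher and 4 lower (median 0.09). The HDL-associated esterase gene Pon1 read 5.81 to 6.51 in KO and 4.88 to 5.73 in WT without overlap, which put its log2 fold change at 0.73 (SE 0.223, adjusted p = 0.331).

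**Figure D4:**
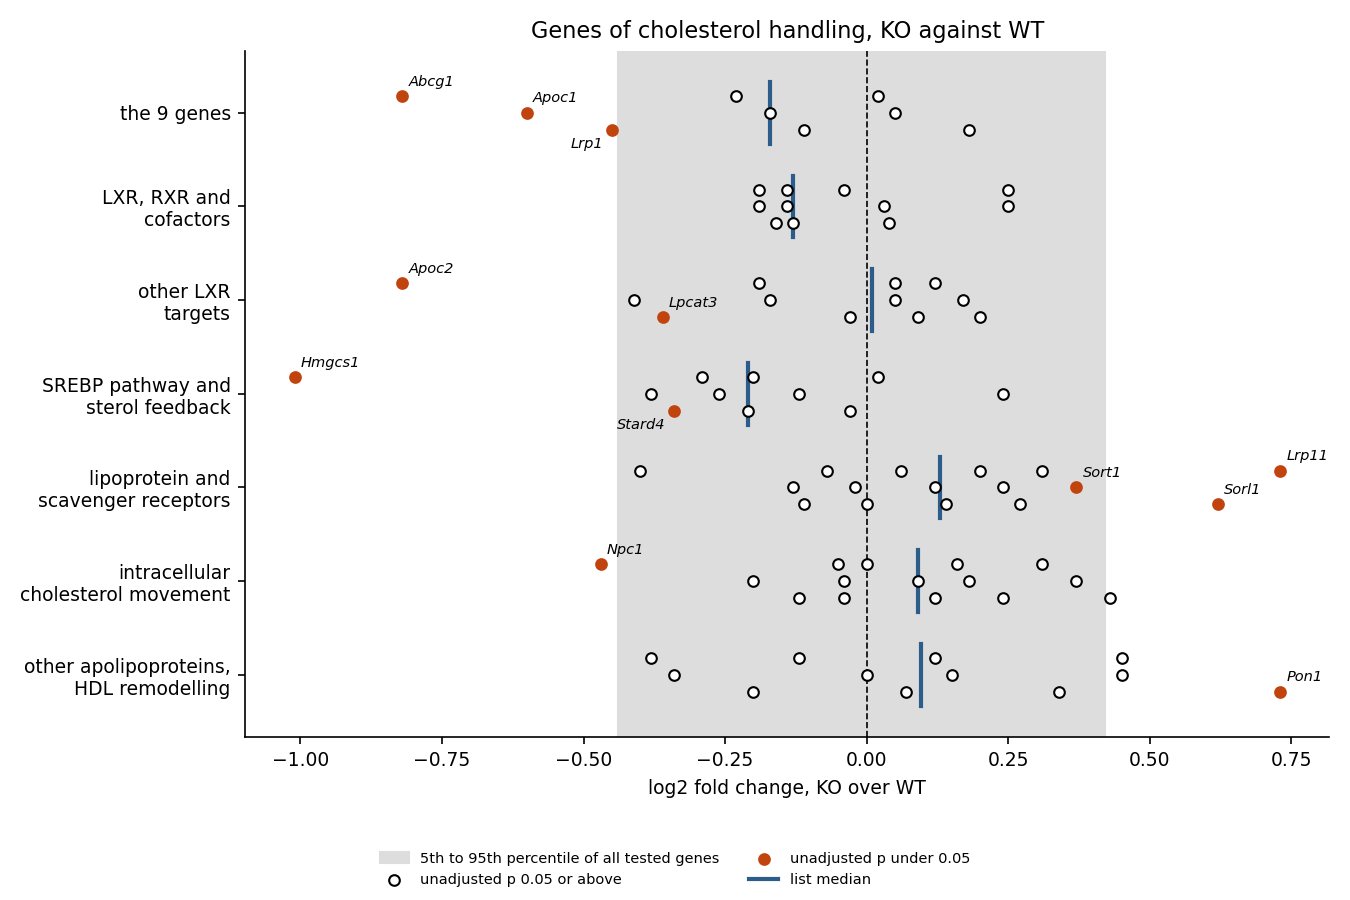
Log2 fold change, KO over WT (horizontal axis), of every tested gene of the 9 genes and of 6 further lists (rows), with list medians as blue bars, genes with an unadjusted limma p under 0.05 filled and named, and the 5th to 95th percentile of all tested genes (-0.44 to 0.42) shaded. Among the named genes, Abcg1, Apoc1 and Lrp1 lie beyond the shaded range on the low side, as do Hmgcs1, Npc1 and Apoc2 (its KO mean below the tested level), while Sorl1, Lrp11 and Pon1 lie beyond it on the high side.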

How the data were processed

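RNA was hybridised to Affymetrix Mouse Gene arrays, 1 array per mouse (5 KO, 3 WT) from 200 ng of RNA. The deposited table holds log2 values per probe set, made with RMA, and per the submitters' processing notes RMA and oligo were used. Per the series design text, Expression Console was used. Which tool made the deposited values is not settled, and the sources used here give no version, centring or build. Values were used as deposited. Of 41345 probe sets, 23521 had 1 gene symbol, 1814 several and 16010 none in the platform annotation. Symbols were updated by Entrez identifier through a GRCm38.p6 gene table (23328 matched). The probe set with the highest mean over 8 arrays stood for a gene, and the brighter 11090 genes, with means from the median (3.61) upward, were tested.

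The comparison of KO with WT used limma 3.58.1 (lmFit and eBayes under R 4.3.3), two-sided, adjusted by Benjamini-Hochberg over all tested genes. The fit was tested on simulated data. Single values were also compared by exact two-sided permutation over 56 divisions of the arrays (smallest p 0.0357). Litters and cages are not labelled, so p-values measure only the spread between these mice. Arrays give no counts, and their number limits the precision. WT and KO share replicate numbers 1 to 3. Deviations from the group means of same-numbered arrays correlated over the tested genes at 0.133, 0.103 and 0.192, so by the rule used here the numbers pair the arrays in an alternative fit (replicate block), although WT 2 deviated as much with KO 1 (0.105). Figures were drawn with matplotlib 3.10.9.

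The 9 genes and all lists were chosen with earlier results of these data known. Named were the 9 genes, of each pathway list up to 4 tested genes with an unadjusted p under 0.05 by smallest p (otherwise the smallest), up to 3 defining markers per marker list, and the 3 genes most like Abca1 and Insig1. The erythroid list had 1 measured gene, Slc4a1, at 2.61 to 5.28 in KO and 2.90 to 3.11 in WT. Alternatives were other level filters, averaging over probe sets, median centring, quantile normalization, array weights, a trended robust prior, the replicate block and leaving out arrays.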

Additional observations from a re-analysis of the deposited data

Results flagged for a closer look

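Dixon's test at the 95% level was run on the KO arrays of the 9 genes and of the genes named by rule from the lists. Chance gives a call in about 1 of 20 such groups, so part of the calls can be chance. The calls are not weighed here against the number of groups tested. In 4 genes, 1 KO array lay far from the other KO arrays. Hdac3 read 7.71 in KO 5, against 8.21 to 8.28 in the other KO arrays. Adipoq read 8.57 in KO 5, against 9.56 to 9.85. The array KO 5 was the lowest for 28.9% of all tested genes. Cdh5, an endothelial junction gene, read 10.49 in KO 5, against 9.62 to 9.77. The germ cell gene Tnp1 read 3.84 in KO 4, against 2.64 to 2.99. None of the 9 cholesterol genes had such an array within KO, and groups of 3 such as WT were not tested.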

How the results depend on the processing

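None of the 9 genes passed the adjusted threshold in limma under any of the 18 alternatives, and Abca1, Abcg1, Apoe, Apoc1 and Lrp1 kept their direction in all of them. The adjusted p of Lrp1 ranged from 0.0939 to 0.742 and that of Abcg1 from 0.205 to 0.742. Of all tested genes, 40 passed with array weights, 3 with the trended robust prior, 2 with the replicate block and 0 to 5 when single arrays were left out. At an unadjusted p under 0.05 there were 1871 genes without the level filter (8.44% of the 22180 then tested, against 10.5% of 11090), 1873 with array weights, 1997 with the replicate block, 732 without WT 1 and KO 4, and 745 to 1596 without single arrays. Of the 9 genes, 1 was lower at that level without WT 1 and KO 4 (Abcg1), and 2 to 3 without single arrays. With the replicate block 1 was higher (Pltp). Apoc1 did not reach that level with the block, nor in the other alternatives named with its values above. The block changed no adjusted call of the 9 genes. The number below 0 was 6 to 8 without single arrays.

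Directions near 0 turned. Without WT 1 and KO 4 the log2 fold change was 0.06 for Scarb1, -0.10 for Mylip and -0.02 for Insig1. Without KO 1 and KO 2 it was -0.04 for Pltp, -0.07 for Mylip and -0.28 for Insig1. Without single arrays it ranged from -0.20 to 0.03 for Scarb1, from 0.04 to 0.35 for Pltp, from -0.11 to 0.12 for Mylip and from -0.13 to 0.22 for Insig1. The cause was not tested. With each array centred on its median, 48.7% of the genes at an unadjusted p under 0.05 were higher, and with quantile normalization 54.4%, against 38.5% as deposited.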
